A study of Mus musculus with 12 samples.

Results

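The 40 genes described here encode the machinery that licenses and copies DNA in S phase, together with the transcription factor E2f1 and the E-type cyclins that open it. They were chosen by name, as a list of replication genes, and each was measured with its brightest probe on 12 one-colour Agilent arrays. All 40 were among the 15311 named genes that were tested, and 39 of them were well above background on all 12 arrays. The exception was Ccne2, which was well above background on 8 of 12 arrays.

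The arrays came from a study of Dmrt3 and Dmrta2, which encode transcription factors with a DM domain, in the medial telencephalon, the part of the embryonic forebrain that forms the hippocampus and the cortical hem. Electroporation was done in CD-1 mouse embryos at E11.5 (embryonic day), and the cells that carried GFP were collected by sorting 24 hours afterwards, at E12.5. The groups, each with 3 replicates, received a first set of siRNAs against Dmrt3 and Dmrta2 (set 1), a second set against the same genes (set 2), an expression plasmid for Dmrta2, or control siRNAs. All groups received a vector for nuclear EGFP, so that GFP marks transfected cells and not a cell type. Control siRNAs served as the control for every group, the Dmrta2 plasmid included, and an empty plasmid was not among the arrays. The sources used here do not give the promoter that drove the plasmids, or say whether a replicate pooled several embryos, so p-values measure only the spread between these samples.

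Replication is prepared in G1 and carried out in S phase. The origin recognition complex binds origins and, with Cdc6 and Cdt1, loads the MCM helicase as an inactive double ring, a step called licensing that geminin (Gmnn) blocks once S phase has begun. Cdc45 and the GINS complex then join MCM to form the active CMG helicase, behind which primase, the replicative polymerases, the PCNA clamp and the enzymes that join Okazaki fragments build the new strands. Many of these genes are switched on at the G1/S boundary by E2F transcription factors, and cycling progenitors of the ventricular zone express them while postmitotic neurons largely do not. In RNA from a bulk of sorted cells, fewer cycling cells and less RNA of these genes per cell cannot be told apart.

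E2F proteins bind DNA with the letters TTTSSCGC, in which S stands for C or G, and promoters of replication genes are known for such sites. A promoter window of 300 bases, 250 before and 50 after the annotated start site, was given in the RefSeq table (GRCm38.p6) for 31 of the 40 genes, and 9 genes had none there. The letters TTTCCCGC, TTTCGCGC, TTTGCCGC and TTTGGCGC were searched on both strands, with overlapping matches counted singly. At least 1 match stood in the windows of 13 of 31 replication genes (41.9%), against 704 of 27025 genes in the whole table (2.6%). The genes were Mcm3, Mcm5, Mcm6, Mcm7, Orc1, Orc3, Cdc6, Cdt1, Gins3, Rfc3, Lig1, Pold1 and Pola1. The letters CCAAT, bound by NF-Y, stood in a window of 61.3% of the replication genes, against 41.1% of all genes in the table. The letters TTTGAA, the core of the CHR element of genes expressed late in the cell cycle, stood in a window of 12.9% of the replication genes, against 20.2% of all genes. A match is a description of letters, not a shown binding site.

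The 250 bases before the start site are shown for 4 genes with these letters, from licensing, the helicase and DNA synthesis. They are also shown for 1 gene without them, Orc5, whose difference in the siRNA average was above 0 while theirs were below. Orc5 is not typical of its class. Of the 18 genes with a window but no E2F letters, 16 were below 0 in that average, beside 12 of 13 with the letters. Capitals mark the E2F letters on either strand. Mcm5, a helicase subunit, lies on the plus strand at chr8:75109259-75109508 and holds a pair of overlapping matches, whose first bases are at -153 and -149 from the start. Mcm6, another helicase subunit, lies on the minus strand at chr1:128359706-128359955 and holds 3 matches, of which 2 overlap. Cdc6, a helicase loader, lies on the plus strand at chr11:98907901-98908150 and holds 1 match, at -138 from the start. Pola1, the catalytic subunit of DNA polymerase alpha, lies on the minus strand at chrX:93632156-93632405 and holds 1 match, also at -138. Orc5, an origin recognition subunit, lies on the minus strand at chr5:22550339-22550588 and holds none. The match of Cdt1 lay 33 bases after the start and is not shown.
Mcm5 promoter: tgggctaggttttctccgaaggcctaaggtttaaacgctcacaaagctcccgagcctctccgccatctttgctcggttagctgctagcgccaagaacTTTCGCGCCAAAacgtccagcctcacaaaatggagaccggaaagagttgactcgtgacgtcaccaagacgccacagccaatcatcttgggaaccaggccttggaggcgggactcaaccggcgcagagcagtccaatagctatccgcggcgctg
Mcm6 promoter: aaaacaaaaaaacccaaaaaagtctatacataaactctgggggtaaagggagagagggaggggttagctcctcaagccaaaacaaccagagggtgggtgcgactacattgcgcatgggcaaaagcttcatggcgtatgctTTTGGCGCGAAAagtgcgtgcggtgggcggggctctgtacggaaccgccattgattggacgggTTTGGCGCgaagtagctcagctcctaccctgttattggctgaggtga
Cdc6 promoter: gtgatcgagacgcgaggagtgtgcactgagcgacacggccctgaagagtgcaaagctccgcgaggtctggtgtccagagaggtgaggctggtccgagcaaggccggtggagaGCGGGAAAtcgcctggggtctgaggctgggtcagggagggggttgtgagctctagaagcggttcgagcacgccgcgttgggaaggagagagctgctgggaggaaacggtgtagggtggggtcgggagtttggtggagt
Pola1 promoter: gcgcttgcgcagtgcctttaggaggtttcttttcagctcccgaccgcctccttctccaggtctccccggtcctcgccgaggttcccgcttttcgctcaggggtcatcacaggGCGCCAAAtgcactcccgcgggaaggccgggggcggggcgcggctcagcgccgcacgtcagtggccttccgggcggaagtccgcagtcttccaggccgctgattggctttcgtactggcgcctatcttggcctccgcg
Orc5 promoter: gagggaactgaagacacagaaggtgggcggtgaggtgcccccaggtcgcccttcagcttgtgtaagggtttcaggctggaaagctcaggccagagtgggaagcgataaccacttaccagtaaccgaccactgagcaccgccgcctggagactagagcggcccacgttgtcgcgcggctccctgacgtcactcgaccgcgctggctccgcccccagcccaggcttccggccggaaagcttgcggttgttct

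Levels are log2 of the processed signal minus the 75th percentile of the array, so that 0 is the 75th percentile and 1 unit is a factor of 2. Arrays were similar in quality, with 67.1% to 72.2% of spots well above background, a 75th percentile of 572 to 1143 intensity units and no saturated spot. The 12 arrays lay on 3 slides of 4, each scanned on its own, and the slide was the replicate number. Every slide held 1 array of each group at a fixed position, so slide and group can be told apart. Position and group cannot, and differences within a slide carry the position as well. The log2 difference of Dmrt3 was -0.90 ± 0.26 (SE) over both siRNA sets, with all 6 siRNA arrays under all 3 control arrays (limma adjusted p = 0.161, or 0.0279 when slides entered the fit as a block). For Dmrta2 it was -0.46 ± 0.14 (limma adjusted p = 0.206). Where the label reads Dmrta2 overexpression, the probe of Dmrta2 stood at 2.10, 2.18 and 1.93, against 2.72, 2.37 and 2.61 on control arrays. That probe does not bear out the label, and whether it lies within the plasmid's insert was not examined.

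No replication gene passed the threshold of an adjusted p under 0.05 in any of 6 comparisons tested with limma over all 15311 genes. Of the 6, 4 were made against control siRNAs: the average of the siRNA sets, each set alone, and the Dmrta2 overexpression label. The remaining comparisons were of set 2 with set 1 and of the overexpression label with the siRNA average. Over all genes, 0.666% were called for the siRNA average, 0.229% for set 1, 0.934% for set 2, 0.274% for the overexpression label, 0.0784% for set 2 against set 1 and 2.16% for the overexpression label against the siRNA average. When slides entered the fit as a block, 1.52%, 0.751%, 2.35%, 0.346%, 0.242% and 3.42% of all genes were called in the same order of comparisons, and again 0 of 40 replication genes. The lowest limma adjusted p of any replication gene was 0.153 without the block, for E2f1 in the siRNA average. With the block it was 0.110, also in the siRNA average.

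Most of the 40 genes lay below control in the knockdown arrays, by amounts that no single gene's test resolved. For the average of both siRNA sets, 35 of 40 differences were below 0 and their median was -0.33, which is 79.8% of the control level, against a median of -0.003 over all genes, of which 50.6% were below 0. For set 1, 36 of 40 were below 0 with a median of -0.41, or 75.5% of control, where 51.6% of all genes were below 0. For set 2, 33 of 40 were below 0 with a median of -0.26, or 83.3% of control, where 49.3% of all genes were. For the overexpression label, 31 of 40 were below 0 with a median of -0.05, or 96.3% of control, where 47.5% of all genes were. That count was 16 of 40 when control replicate 3 was left out and 21 when overexpression replicate 1 was. These medians describe the list and carry no test, and the first 4 comparisons share the same 3 control arrays.

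At an unadjusted p under 0.05, 14 of 40 genes were lower and none higher in the siRNA average, where 4.62% of all genes were lower. The corresponding count was 16 of 40 for set 1, where 3.81% of all genes were lower, and 6 of 40 for set 2, where 5.11% were. It was 0 of 40 for the overexpression label, where 0.653% were lower. These counts leaned on single arrays. In the siRNA average, 22 genes had such a p without control replicate 2, 1 without control replicate 1 or 3, 6 without set 2 replicate 1, and 9 without set 1 replicate 2 or set 2 replicate 3. For set 1, omitting control replicate 1 left 3 such genes, omitting control replicate 3 or set 1 replicate 2 left 4, and omitting set 1 replicate 3 left 9. In set 2 it was 15 without control replicate 2, 16 without set 2 replicate 2, 1 without control replicate 1 or 3, and 2 without set 2 replicate 1 or 3.

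Relative to its own mean over the 12 arrays, the median replication gene stood at -0.11, -0.27 and -0.19 on set 1 replicates 1, 2 and 3. It stood at -0.28, 0.16 and -0.10 on the set 2 arrays and at 0.01, 0.28 and 0.04 on the arrays labelled Dmrta2 overexpression, against 0.25, -0.08 and 0.35 on the control arrays. All 3 set 1 arrays lay below all 3 control arrays, while set 2 replicate 2 lay above control replicate 2. Control replicate 2 was low among the controls, and both set 2 replicate 2 and the array labelled Dmrta2 overexpression from the same slide were high in their groups. The spread between replicates of these array medians was 0.18 (SD pooled within groups).

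**Figure D1:**
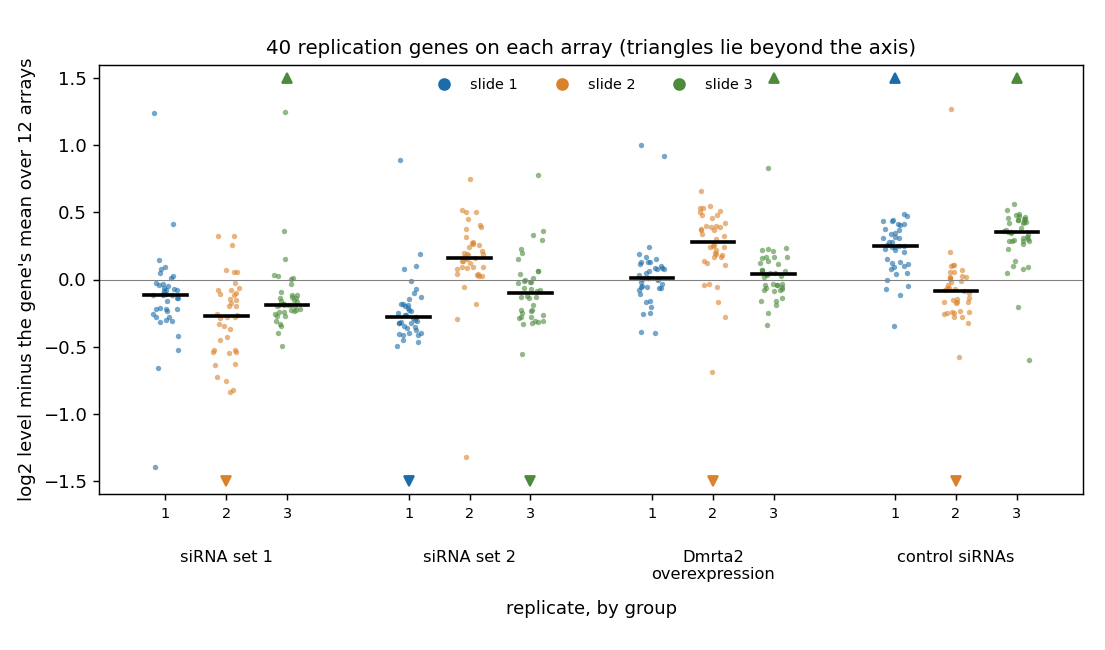
Log2 level of the 40 replication genes on each of 12 arrays, each gene minus its own mean, with 1 point per gene, a bar at the median and colour for the slide; triangles mark values beyond the axis. The set 1 medians lie between -0.27 and -0.11, and the control medians of slides 1 and 3 at 0.25 and 0.35 are above that of slide 2 at -0.08.

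The slides did not all show the same order of groups. On slide 1 the control array was the highest of 4 for 36 of 40 genes, and on slide 3 for 34 of 40, against 26.8% and 24.1% of all genes. On slide 2 it was the highest for 2 of 40, and the array labelled Dmrta2 overexpression was the highest for 26 of 40. Set 1 was below control on every slide by the median gene, with differences of -0.38, -0.22 and -0.51 on slides 1, 2 and 3, and 28 of 40 genes were lower on all 3 slides, against 21.5% of all genes. Set 2 had medians of -0.55, 0.28 and -0.49, and 4 of 40 genes were lower on all 3 slides, against 19.3% of all genes. The overexpression label had medians of -0.25, 0.38 and -0.34, and no gene was lower on all 3 slides, against 10.6% of all genes. For the siRNA average the slide medians were -0.45, -0.02 and -0.52, and 19 of 40 genes were lower on all 3 slides, against 22.2% of all genes. Among the 3 groups, only set 1 had a median below 0 on all slides. Its slide 2 array was the one with the outlying 75th percentile of 1143 intensity units, and whether this bears on its values was not tested. With that array left out, the set 1 median was -0.35.

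**Figure D2:**
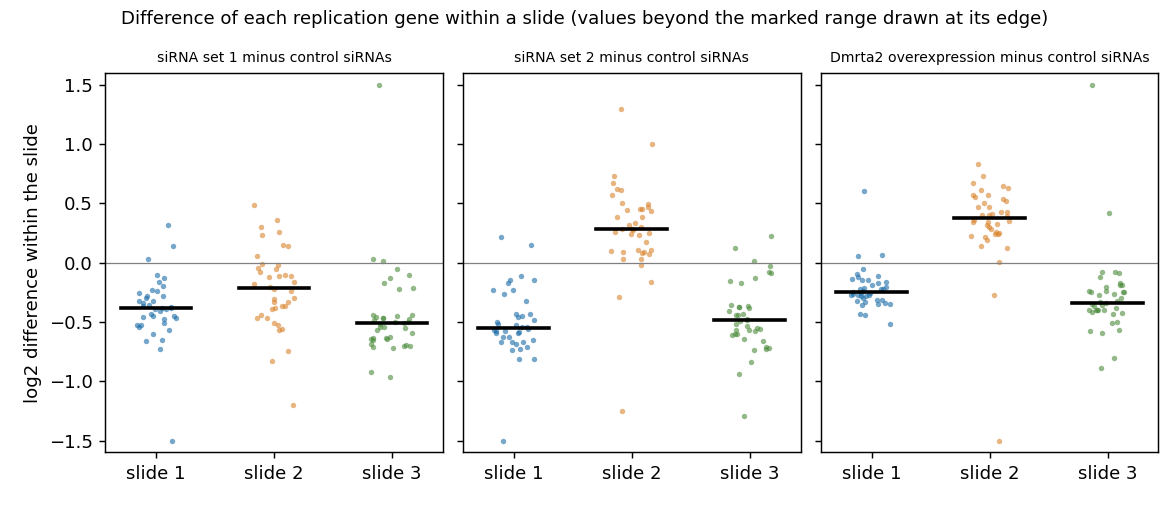
Log2 difference from the control array of the same slide for each replication gene, in set 1, set 2 and the arrays labelled Dmrta2 overexpression, with a bar at the median and 1 point per gene. Set 1 medians are below 0 on all 3 slides (-0.38, -0.22 and -0.51), while set 2 (0.28) and the overexpression label (0.38) have medians above 0 on slide 2.

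The proteins that open S phase come first. E2f1, the activating E2F factor named above, was at 1.67, 1.49 and 1.55 in set 1, at 1.35, 1.80 and 1.45 in set 2, and at 1.72, 2.15 and 1.82 in the arrays labelled Dmrta2 overexpression, against 2.07, 1.96 and 2.02 in controls. It alone of the 40 genes had all 6 siRNA arrays below all 3 control arrays, a share near the 2.04% of all genes with that pattern. Its log2 difference from control was -0.46 ± 0.13 for the siRNA average (limma adjusted p = 0.153), -0.44 ± 0.15 for set 1 (adjusted p = 0.319) and -0.48 ± 0.15 for set 2 (adjusted p = 0.181). Within slides 1, 2 and 3 the siRNA average differed by -0.55, -0.32 and -0.52, so E2f1 was lower on slide 2 as well.

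Ccne1, an E-type cyclin that activates Cdk2 at the G1/S boundary, was at 3.20, 2.73 and 3.01 in set 1, at 2.90, 3.44 and 3.00 in set 2, and at 3.39, 3.81 and 3.42 in the arrays labelled Dmrta2 overexpression, against 3.50, 2.98 and 3.72 in controls. The groups overlapped, and the siRNA average differed by -0.35 ± 0.19 (limma adjusted p = 0.542). Ccne2, the other E-type cyclin, was at -4.46, -8.90 and -4.46 in set 1, at -4.82, -7.04 and -4.93 in set 2, and at -4.70, -7.81 and -4.88 in the arrays labelled Dmrta2 overexpression, against -4.19, -8.33 and -4.00 in controls. All 4 arrays of slide 2 were not well above background for this probe, so each group has 2 measured replicates. On slides 1 and 3 the control array was the highest of the 4. The range of 4.90 log2 units over the arrays was wider than that of 99.7% of all genes, and no fold change is given.

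The 6 subunits of the origin recognition complex had no common direction. In the siRNA average their median was 0.01, from -0.35 to 0.25, with 3 of 6 below 0. Orc1 and Orc6 were the low ones, and in set 1 both lay below control on all 3 slides, with set 1 arrays at -3.44, -3.21 and -3.63 for Orc1 against -3.09, -3.13 and -2.66 in controls. Orc6 stood at 2.39, 1.84 and 2.13 in set 1, against 2.84, 2.59 and 2.57 in controls, and neither pair of groups overlapped. Orc5, whose promoter is shown above without E2F letters, was the highest at 0.25 ± 0.19 in the siRNA average (limma adjusted p = 0.692), with 0.12, 0.58 and 0.06 on slides 1, 2 and 3. Orc2, Orc3 and Orc4 had differences within 1 SE of 0 in set 1. Whether this role differs from the others was not tested.

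The loaders and their inhibitor were lower in set 1. Cdt1, which brings MCM to origins and is destroyed once they fire, was at 3.40, 2.91 and 3.24 in set 1, at 3.39, 3.80 and 3.56 in set 2, and at 3.69, 4.14 and 3.76 in the arrays labelled Dmrta2 overexpression, against 4.13, 3.47 and 4.16 in controls. All set 1 arrays lay below all controls, and set 2 overlapped them through slide 2. Cdt1 had the largest difference of the 40 in set 1, -0.74 ± 0.22 or 60.1% of control (limma adjusted p = 0.240), with -0.72, -0.56 and -0.92 on slides 1, 2 and 3. In the siRNA average it was -0.54 ± 0.19 (adjusted p = 0.273).

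Cdc6, the ATPase that works with Cdt1, was at -0.52, -1.23 and -0.55 in set 1, at -0.60, -0.28 and -0.49 in set 2, and at -0.32, -0.10 and -0.24 in the arrays labelled Dmrta2 overexpression, against 0.03, -0.73 and 0.16 in controls. Control replicate 2 lay below 2 of the 3 set 1 arrays, so the groups overlapped. The difference was -0.58 ± 0.25 in set 1 (limma adjusted p = 0.462) and -0.43 ± 0.22 in the siRNA average (adjusted p = 0.481). A second probe of Cdc6 gave -0.82 and -0.50. Gmnn, geminin, was at 1.09, 0.58 and 1.03 in set 1, at 1.03, 1.29 and 1.22 in set 2, and at 1.38, 1.38 and 1.25 in the arrays labelled Dmrta2 overexpression, against 1.62, 0.98 and 1.65 in controls. Here too control replicate 2 lay among the siRNA arrays, and the siRNA average differed by -0.38 ± 0.17 (adjusted p = 0.415). The inhibitor and the loaders thus had differences of the same sign.

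The 6 MCM helicase subunits had differences of similar size. In set 1 all 6 were below control on each slide, with differences from -0.57 to -0.40 and a median of -0.44, and for Mcm4, Mcm5, Mcm6 and Mcm7 all set 1 arrays lay below all control arrays. In set 2 their median was -0.27, made of -0.55 on slide 1, 0.28 on slide 2 and -0.55 on slide 3, and with the overexpression label it was 0.00. Mcm2 was at 2.37, 2.30 and 2.50 in set 1, at 2.38, 2.86 and 2.65 in set 2, and at 2.67, 2.99 and 2.90 in the arrays labelled Dmrta2 overexpression, against 2.82, 2.43 and 3.15 in controls. Its set 1 and control groups overlapped, and the siRNA average differed by -0.29 ± 0.16 (limma adjusted p = 0.555). The siRNA average was -0.47 ± 0.20 for Mcm4 (adjusted p = 0.381) and -0.44 ± 0.17 for Mcm5 (adjusted p = 0.324).

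The factors that turn loaded MCM into the CMG helicase were more mixed. In the siRNA average the 6 genes had a median of -0.16, from -0.38 for Mcm10 to 0.02 for Gins4. Mcm10, which helps activate the helicase, differed by -0.38 ± 0.15 (limma adjusted p = 0.323) and had all set 1 arrays below all control arrays. Gins1, a GINS subunit, was at 2.02, 1.98 and 1.86 in set 1, at 1.85, 2.44 and 1.90 in set 2, and at 2.21, 2.24 and 1.99 in the arrays labelled Dmrta2 overexpression, against 2.54, 1.99 and 2.55 in controls. On slides 1 and 3 its control array was the highest, and with the overexpression label the difference was -0.22 ± 0.19. Gins2, another GINS subunit, was at -0.52, -0.05 and 0.15 in set 1, at -0.17, 0.90 and 0.48 in set 2, and at -0.11, 0.63 and -0.19 in the arrays labelled Dmrta2 overexpression, against 0.15, -0.10 and 0.61 in controls. It was higher in set 2 than in set 1 on all 3 slides, by 0.54 ± 0.32 (adjusted p = 0.657). Gins3 and Gins4, the remaining GINS subunits, and Cdc45 overlapped between set 1 and control.

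Among the polymerases, Pola1, Pold1, Pole and Prim1 had all set 1 arrays below all control arrays, and the exception was Prim2. Pola1 was at 1.00, 0.20 and 0.85 in set 1, at 0.97, 1.12 and 0.91 in set 2, and at 1.23, 1.29 and 0.98 in the arrays labelled Dmrta2 overexpression, against 1.51, 1.03 and 1.39 in controls. Set 1 differed by -0.63 ± 0.21 (limma adjusted p = 0.309), with -0.51, -0.83 and -0.55 on the slides, and the siRNA average by -0.47 ± 0.18 (adjusted p = 0.322). Pold1, Pole and Prim1 encode the catalytic subunits of the lagging-strand polymerase, the leading-strand polymerase and primase.

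Prim2, the large primase subunit, varied widely between replicates of a group. It was at -2.34, -0.86 and 0.99 in set 1, at -2.85, -0.91 and -2.83 in set 2, and at -0.02, -1.63 and 1.02 in the arrays labelled Dmrta2 overexpression, against -0.62, 0.34 and -1.54 in controls. Its range of 3.86 log2 units over the arrays was wider than that of 98.9% of all genes, although the probe was well above background on all 12. It had the largest difference of the 40 in 5 of 6 comparisons and was called in none. The differences were -0.86 ± 0.80 in the siRNA average, -1.59 ± 0.93 in set 2 and 0.40 ± 0.93 with the overexpression label. They were -1.46 ± 0.93 for set 2 against set 1 and 1.26 ± 0.80 for the overexpression label against the siRNA average. Prim1, its partner in primase, spanned 0.81 log2 units.

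**Figure D3:**
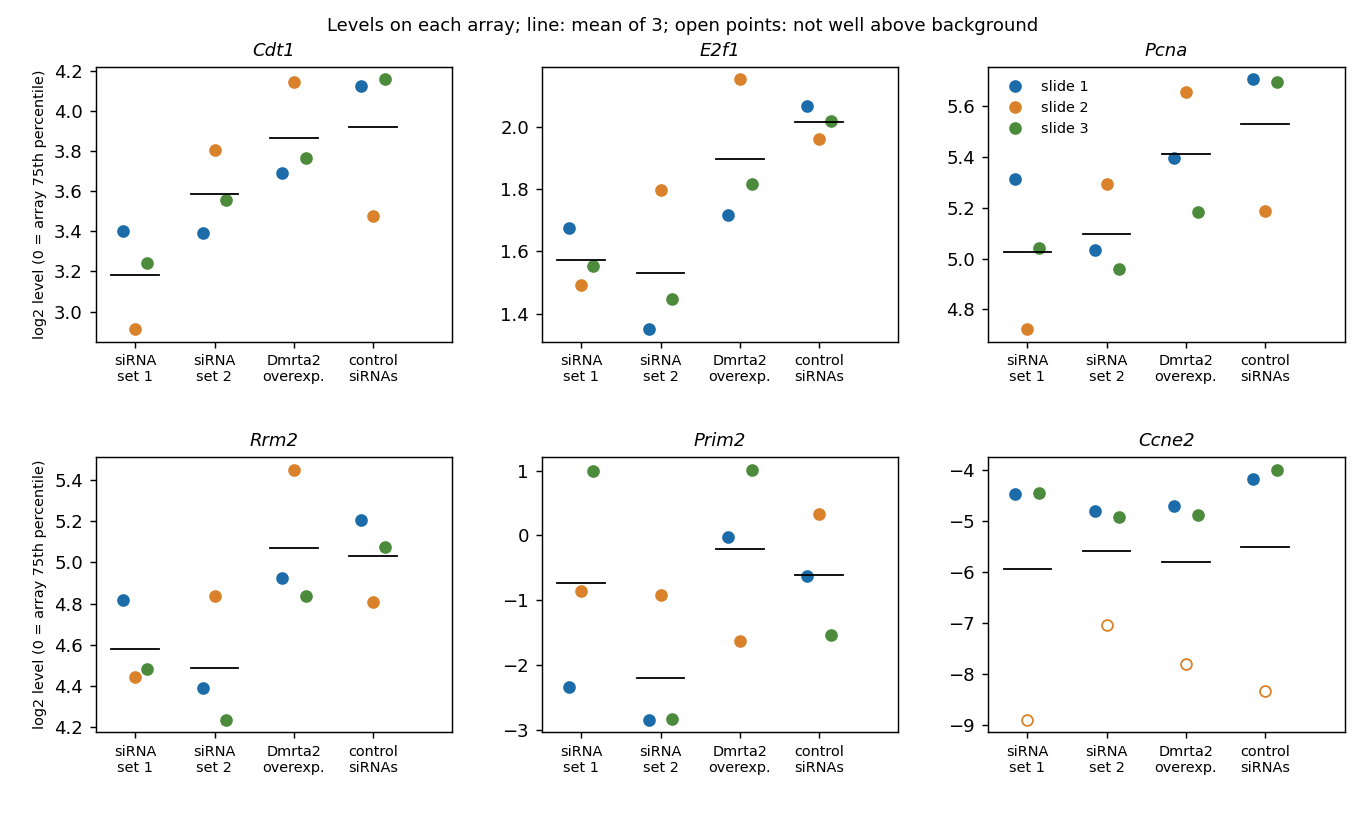
Log2 level of 6 replication genes on each array, with colour for the slide and a line at the mean of all 3 replicates, open points included; open points were not well above background. The 6 siRNA arrays of E2f1 lie below the 3 control arrays, while Prim2 ranges over 3.86 units and the slide 2 points of Ccne2 are open.

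Pcna, the sliding clamp that holds polymerases on DNA, was at 5.31, 4.72 and 5.04 in set 1, at 5.03, 5.29 and 4.96 in set 2, and at 5.39, 5.66 and 5.18 in the arrays labelled Dmrta2 overexpression, against 5.71, 5.19 and 5.70 in controls. The siRNA average differed by -0.47 ± 0.17 (limma adjusted p = 0.304), and by -0.53, -0.18 and -0.70 on slides 1, 2 and 3. The 5 subunits of the clamp loader were not uniform. Rfc1, the large subunit, was at 1.47, 1.91 and 1.65 in set 2, below all controls at 2.20, 1.93 and 2.26 (-0.45 ± 0.17, adjusted p = 0.271). Rfc4 was at 3.69, 3.39 and 3.48 in set 1, against 3.92, 3.69 and 3.98 in controls. Rfc2, Rfc3 and Rfc5, the other small subunits, overlapped between set 1 and control.

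Lig1, the ligase that seals Okazaki fragments, differed by -0.42 ± 0.14 in the siRNA average (limma adjusted p = 0.231), and its set 1 arrays, at 3.75, 3.83 and 3.88, lay below the controls at 4.36, 3.95 and 4.43. Fen1, the flap endonuclease that trims the fragments, stood at 3.94, 3.49 and 3.78 in set 1, against 4.40, 3.87 and 4.47 in controls, and the groups overlapped by 1 pair of arrays. Among genes of nucleotide supply, Rrm2, the regulated subunit of ribonucleotide reductase, was at 4.82, 4.44 and 4.48 in set 1, at 4.39, 4.83 and 4.24 in set 2, and at 4.92, 5.45 and 4.84 in the arrays labelled Dmrta2 overexpression, against 5.20, 4.81 and 5.08 in controls. It differed by -0.49 ± 0.18 in the siRNA average (adjusted p = 0.297) and by -0.54 ± 0.21 in set 2 (adjusted p = 0.300). Rrm1, the large subunit of the same enzyme, and Tyms, thymidylate synthase, overlapped between each siRNA set and control.

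**Figure D4:**
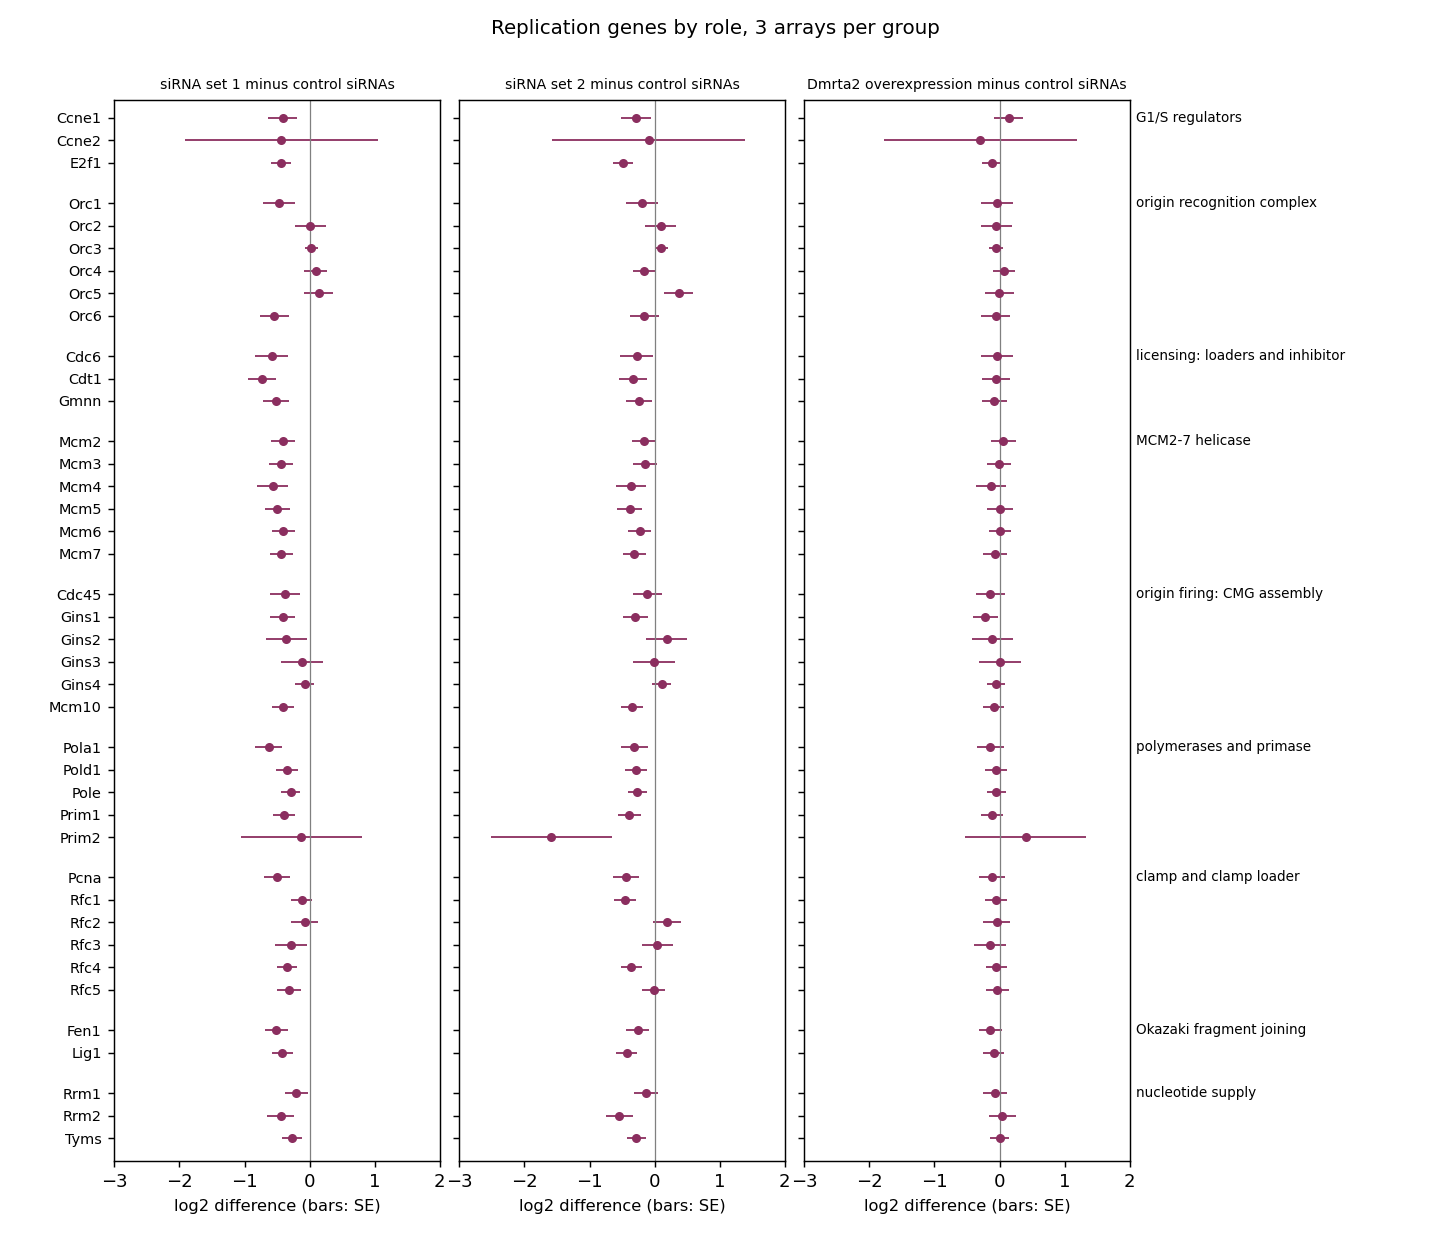
Log2 difference from control siRNAs of each replication gene, grouped by role, for set 1, set 2 and the arrays labelled Dmrta2 overexpression, with bars of 1 SE and 3 arrays per group. Set 1 points lie mostly left of 0 with a median of -0.41, except among the origin recognition subunits, and the wide bars belong to Ccne2 and Prim2.

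Counting groups without overlap, 15 of 40 genes had all set 1 arrays below all control arrays, against 7.07% of all genes. The genes were E2f1, Orc1, Orc6, Cdt1, Mcm4, Mcm5, Mcm6, Mcm7, Mcm10, Pola1, Pold1, Pole, Prim1, Rfc4 and Lig1. In set 2 the count was 2 of 40, E2f1 and Rfc1, against 7.71% of all genes. No replication gene had all arrays of a siRNA set above all controls, against 7.49% of all genes for set 1 and 10.3% for set 2. The arrays labelled Dmrta2 overexpression had 0 of 40 below and 0 of 40 above all controls, against 1.71% and 5.90% of all genes.

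The 2 siRNA sets were compared directly. Set 2 was above set 1 for 32 of 40 genes, where 45.6% of all genes were below 0, with a median of 0.13 that combined -0.13, 0.47 and 0.06 on slides 1, 2 and 3, and no gene passed the threshold (lowest limma adjusted p = 0.578). The count of genes below 0 in set 2 against set 1 was 8 of 40. It was 19 without set 2 replicate 2 and 5 without set 2 replicate 1 or replicate 3. Cdt1 differed by 0.40 ± 0.22 (adjusted p = 0.623), with -0.01, 0.89 and 0.32 on the slides. Rfc5 alone had all set 2 arrays above all set 1 arrays, against 7.68% of all genes. The gap between the sets was widest on slide 2, where set 1 was the lowest of the 4 arrays for 30 of 40 genes.

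The arrays labelled Dmrta2 overexpression were also set against the siRNA average, a difference to which the control arrays contribute only through the shared estimate of spread. Here 8 of 40 genes were below 0, against 47.8% of all genes, with a median of 0.28, and the slide medians were 0.21, 0.35 and 0.18. Leaving out set 1 replicate 3 gave 5 genes below 0. On all 3 slides 28 of 40 genes were higher, against 23.6% of all genes. At an unadjusted p under 0.05, 6 of 40 were higher, against 7.34% of all genes. Omitting overexpression replicate 2 left 1 such gene, and omitting set 2 replicate 1 or set 1 replicate 2 left 3. There were 12 with control replicate 2 omitted and 16 with set 2 replicate 2 omitted. Rrm2 alone was above all 6 siRNA arrays on each of these 3 arrays, against 3.81% of all genes, by 0.54 ± 0.18 (adjusted p = 0.203), and Ccne1 was higher by 0.49 ± 0.19 (adjusted p = 0.295). These directions turn round under an alternative background correction in which 10649 of all 15311 genes were called and some spots had an extreme local background. With those local backgrounds set to the array median, the same correction gave a median of 0.23. Both are given at the end.

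Other gene lists were read against these values. A list of 39 further replication factors, among them the polymerase accessory subunits, RPA, the Dbf4-dependent kinase and chromatin assembly factor 1, had 36 of 39 genes below 0 in the siRNA average with a median of -0.25, and none was called. Its slide medians were -0.35, -0.02 and -0.48, close in order to those of the 40 genes at -0.45, -0.02 and -0.52. A list of 15 nucleotide supply genes had 13 below 0 with a median of -0.21, and of 29 tested E2F, Rb and cyclin genes 20 were below 0 with a median of -0.15. Neither had a called gene in that average. Against the siRNA average, the arrays labelled Dmrta2 overexpression had Ccnd1, which encodes cyclin D1, higher by 1.75 ± 0.39 (limma adjusted p = 0.0491, or 0.0689 in the slide-blocked fit) and Samhd1, a dNTP hydrolase, higher by 0.72 ± 0.15 (adjusted p = 0.0367). In set 2 against control, Samhd1 differed by -0.85 ± 0.17, with a limma adjusted p of 0.0507, or 0.0498 in the slide-blocked fit.

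The 30 genes of G2 and mitosis had a median of -0.12 in the siRNA average, with 21 below 0 and slide medians of -0.20, 0.18 and -0.34, and no call. In set 1 their median was -0.10, with 0.01, 0.06 and -0.38 on the slides, beside -0.38, -0.22 and -0.51 for the replication genes. The difference between the lists was not tested. Of the DNA damage and p53 response genes, 18 were tested. Their summed linear level was 114 to 120 in set 1 and 116 to 128 in set 2. It was 116 to 127 with the overexpression label, against 110 to 116 in controls. The genes of this list named here were picked because they were called, and the list as a whole was not tested. Ccng1, which encodes cyclin G1, rose in the siRNA average by 1.50 ± 0.18 (limma adjusted p = 0.00892). In set 1 alone it differed by 1.11 ± 0.21, with an adjusted p of 0.0650, or 0.0407 in the slide-blocked fit. In set 2 it rose by 1.89 ± 0.21 (adjusted p = 0.00632), and so did Phlda3 and Bbc3, by 1.25 ± 0.20 and 0.95 ± 0.14 (adjusted p = 0.0303 and 0.0283). Phlda3 differed in the siRNA average by 0.83 ± 0.17, with an adjusted p of 0.0642, or 0.0478 in the slide-blocked fit. With the overexpression label, Ccng1 was lower than in the siRNA average by 1.45 ± 0.18 (limma adjusted p = 0.00303). That average itself stood 1.50 above control for Ccng1, so this difference does not show a fall below control. Zmat3, another p53 target, was higher than in the siRNA average by 0.51 ± 0.11 (adjusted p = 0.0477). The probe of Eda2r, a receptor gene induced by p53, was well above background on 1 array of set 1 and 2 arrays of set 2, and on no control array, so the controls give only an upper limit. The probe passed the filter on dim probes only through these siRNA arrays. The mean of set 2 includes an array that was not well above background. The mean of set 1 lay below the lowest signal well above background on the control arrays. No fold change or p-value is therefore given for Eda2r, and its calls against control are not read as a result.

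Markers of other cells varied with slide and group. The summed linear level of 17 postmitotic neuron markers was 159, 127 and 154 in set 1, 169, 85.1 and 140 in set 2, and 149, 93.0 and 137 in the arrays labelled Dmrta2 overexpression, against 135, 163 and 99.1 in controls. The summed level of the 40 replication genes on the same arrays was 339, 278 and 320 in set 1, 302, 399 and 320 in set 2, and 372, 460 and 371 with the overexpression label, against 444, 340 and 462 in controls. On slides 1 and 3 the control array had the lowest neuron sum and the highest replication sum. On slide 2 the set 2 array and the array labelled Dmrta2 overexpression had the lowest neuron sums and the highest replication sums. The set 1 array of slide 2 was below its control in both sums, at 127 against 163 for neuron markers and 278 against 340 for replication genes. All 17 neuron markers were well above background on all arrays and none was called against control. For the overexpression label against the siRNA average, Elavl4 differed by -0.59 ± 0.17, with a limma adjusted p of 0.118, or 0.0333 in the slide-blocked fit. The part that the share of neurons had in the replication gene differences was not tested.

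**Figure D5:**
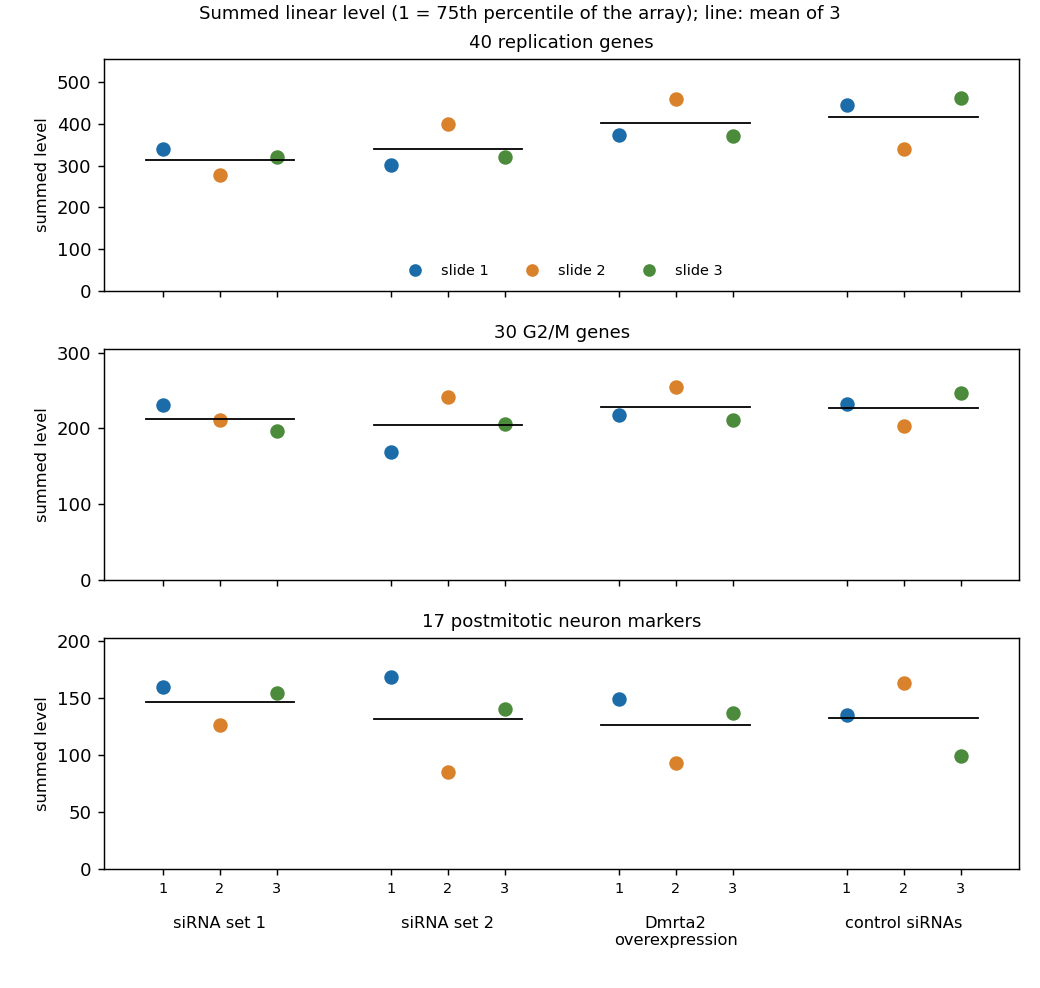
Summed linear level of the 40 replication genes, 30 G2/M genes and 17 postmitotic neuron markers on each array, where 1 is the 75th percentile of the array, with colour for the slide and a line at the mean of 3. The control array is highest for replication genes and lowest for neuron markers on slides 1 and 3, at 444 and 462 against 135 and 99.1.

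Progenitor markers, 12 genes such as Sox2 and Nes, had a median of -0.15 in the siRNA average and no call when slides were not a block, with summed levels of 157 to 164 in set 1, 155 to 179 in set 2 and 131 to 157 with the overexpression label, against 144 to 154 in controls. When slides were a block, Pax6 and Slc1a3, which encodes a glutamate transporter of radial glia, were called higher in the siRNA average, against the sign of that median. Pax6 differed by 1.06 ± 0.27 (limma adjusted p = 0.117, or 0.0379 in the slide-blocked fit) and Slc1a3 by 0.82 ± 0.17 (adjusted p = 0.0743, or 0.0367 in the slide-blocked fit). With the overexpression label, Pax6 was lower than in the siRNA average by 1.52 ± 0.27 (limma adjusted p = 0.0174) and Slc1a3 by 0.81 ± 0.17 (adjusted p = 0.0434). Vim, vimentin, was lower than in that average by 0.58 ± 0.11 (adjusted p = 0.0248). The siRNA average itself stood 1.06 above control for Pax6 and 0.82 for Slc1a3, so these differences do not measure a fall below control.

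Markers of microglia and macrophages, of which 11 were tested, rose against control in 4 cases in the siRNA average, in 6 in set 2 and in 4 with the overexpression label, and in none in set 1. Over all genes, 0.666%, 0.934%, 0.274% and 0.229% were called in either direction in the same order of comparisons. The summed level of these markers was 11.4 to 26.0 in set 1, 13.1 to 25.2 in set 2 and 13.1 to 24.4 with the overexpression label, against 13.8 to 24.6 in controls. The median marker differed more, at -3.23, -3.46 and -3.73 in set 1 and -2.49, -2.89 and -2.74 in set 2. It was at -2.70, -2.81 and -2.54 with the overexpression label, against -4.77, -4.43 and -3.84 in controls. On every array 10 or 11 of 11 were well above background. The called genes were Aif1, Cx3cr1, Tyrobp and C1qa in the siRNA average. Set 2 had those and C1qc and Trem2, and the overexpression label had Aif1, Cx3cr1, Tyrobp and C1qc. The C1qa probe was well above background on 1 of 3 control arrays. In the slide-blocked fit C1qc and Fcer1g were called as well in the siRNA average (limma adjusted p = 0.0413 and 0.0476), and C1qb and Fcer1g in set 2 (adjusted p = 0.0445 and 0.0377). In that fit C1qc was not called with the overexpression label (adjusted p = 0.0507). No marker of erythroid cells (8 tested), endothelium (6 tested) or mesenchyme (6 tested) was called. The summed level of erythroid markers was 1.89 to 18.8 in set 1, 3.68 to 8.08 in set 2 and 5.42 to 11.2 with the overexpression label, against 2.11 to 4.01 in controls, and that of mesenchyme markers was 1.95 to 7.20 in set 1, 1.45 to 1.69 in set 2 and 1.15 to 1.77 with the overexpression label, against 1.02 to 1.48 in controls. For endothelial markers the lowest array of each group was at 4.69 in set 1, 5.90 in set 2 and 5.58 with the overexpression label, against 6.15 in controls. The part of these cells in the replication gene values was not tested.

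The share of variance that went with the group was larger for the median replication gene than for the median gene tested. Group accounted for a median of 45.5% of a replication gene's variance over the 12 arrays and slide for 9.93%, against 28.6% and 26.1% for all genes tested. Among the replication genes, those with E2F letters in the promoter window had a median of -0.33 in the siRNA average (n = 13), those with a window but no such letters -0.32 (n = 18), and those with no window in the table -0.28 (n = 9). In set 1 the medians were -0.43, -0.39 and -0.36 in the same order of promoter classes. These 3 classes are given as a description, with no test between them.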

How the data were processed

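Gene expression was measured on 12 one-colour Agilent arrays in 4 groups of 3. The labels' protocols give a Cy3 low-input labelling that started from 0.1 ug of RNA. The deposited scanner files hold the intensity of each spot, of which the processed signal was used; its 75th percentile ran from 572 to 1143 across arrays. The submitters' processing notes name the software Agilent Feature Extraction, version 10.5.1.1. The authors also deposited a table of log2 values whose scale no label states. Its columns correlated at 0.999 or more with the scanner values once these were scaled to the 75th percentile and centred per probe, and it served as an alternative.

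Control spots and outlier spots (136 to 218 of 43020 per array) were left out, spots of a probe were averaged, and log2 of the processed signal minus each array's 75th percentile was used. The 39429 probes included 32334 with an accession from RefSeq, and a RefSeq table of GRCm38.p6 gave names to 26055. The array annotation uses another build, so gene coordinates are given for promoter windows only, from RefSeq. Genes kept had a probe well above background on at least 3 arrays, and the brightest probe stood for the gene (15311 genes). For 6 of the 40 genes there were 2 probes. Promoter windows were scanned with Python 3.11.15.

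Differences were tested two-sided with limma 3.58.1 in R 4.3.3 (lmFit, eBayes) over 4 group means (8 residual degrees of freedom), with p-values adjusted by Benjamini-Hochberg across all genes. The test was checked on simulated data. SE is limma's moderated one. Precision is limited by the number of arrays. The 40 genes, the 12 gene lists and the tests were chosen with earlier results of these data known, so no pattern shown before counts as independent support. Values on every array are given for the 3 genes with the largest difference in each comparison and for 9 genes of different roles (E2f1, Ccne1, Ccne2, Cdc6, Cdt1, Gmnn, Mcm2, Pcna and Rrm2). Other genes are given by ranges and counts, and arrays of a pair of groups are shown for some of them to display an overlap or its absence; these were picked after their values were seen. Of other lists, genes past the threshold are named, and those called when slides entered the fit as a block.

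Alternatives were another background correction (normexp, offset 50, on median spot and local background intensity as deposited, since the files hold no mean signal), quantile or median normalization, the deposited log2 table, no or a stricter filter on dim probes, the mean of all probes, the slide as a replicate block, the arrays of the compared groups alone, and leaving out each array. A second normexp correction with extreme local backgrounds replaced was added after the data were seen.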

Additional observations from a re-analysis of the deposited data

How the results depend on the processing

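The count of replication genes past the threshold was 0 in all 6 comparisons and under all alternatives except normexp on median spot and background signals. With that correction 29 genes were called for the overexpression label against control, with a median of -1.01, and 21 for the overexpression label against the siRNA average, with a median of -0.68, where 9868 and 10649 of all genes were called. All genes then had medians of 0.44 and 0.39. Rrm2 and Ccne1 turned round to -0.62 and -0.58 against the siRNA average. The arrays labelled Dmrta2 overexpression replicates 1 and 2 held 6 and 24 spots with extreme local background, up to 203165 units, and set 1 replicate 2 held 3. With these set to the array median, an alternative added after the data were seen, both counts were 0 and the medians -0.07 and 0.23. Same-numbered arrays of different groups deviated together to varying degrees (18 pairs, r from 0.02 to 0.60). These arrays share a slide, and the fit with the slide as a block is therefore given as an alternative. With the replicate block (slide) no replication gene was called in any of the 6 comparisons, while calls of genes in other lists changed as given beside them. Leaving out 1 array at a time, the count remained at 0, and the median ran from -0.44 to -0.23 in the siRNA average, -0.52 to -0.29 in set 1, -0.41 to -0.17 in set 2, -0.17 to 0.02 with the overexpression label, 0.02 to 0.24 for set 2 against set 1, and 0.18 to 0.34 for the overexpression label against the siRNA average. The set 2 median was -0.41 without control replicate 2 and -0.17 without control replicate 3. The overexpression label's median was 0.02 without control replicate 3, and its count of genes below 0 ran from 16 to 38 of 40. Omitting control replicate 2 gave -0.17, and omitting overexpression replicate 1, 2 or 3 gave -0.01, -0.15 or -0.03, the last also given by omitting control replicate 1. The median for set 2 against set 1 was 0.02 without set 2 replicate 2, 0.08 without set 1 replicate 2 and 0.24 without set 2 replicate 1. That of the overexpression label against the siRNA average was 0.18 without its replicate 2. Prim2 with the overexpression label ran from -0.21 without overexpression replicate 3 to 1.11 without overexpression replicate 2, and was -0.07 without control replicate 3. Of 31 single-gene differences given, 26 kept direction and side of the threshold in all alternatives run. With 3 arrays a group, differences of about 0.4 with a median SE of 0.17 to 0.19 were not resolved across 15311 genes.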
